A study of Mus musculus with 5 samples.

Results

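The miR-290 to miR-295 cluster and the miR-302 cluster are the microRNA (miRNA) genes best known from mouse pluripotent stem cells. Their probes were followed here in the adult hippocampus. Members were chosen by name: every mouse miRNA probe called miR-290, miR-291a, miR-291b, miR-292, miR-293, miR-294, miR-295, miR-302a, miR-302b, miR-302c, miR-302d or miR-367, with or without the name of its arm (5p or 3p), and passenger strands (names ending in *) left out. This gave 16 of the 569 miRNA probes on the array, 11 from the miR-290 to miR-295 cluster and 5 from the miR-302 cluster. All 16 passed the filter on low signal, as did 568 of the 569 probes. Total RNA came from hippocampi of 8-week-old knock-in mice of strain 129/Sv carrying the human gene for brain-derived neurotrophic factor (hBDNF), homozygous for either the Met form (Met/Met) or the Val form (Val/Val). Small RNA of 1 Met/Met mouse, labelled with Cy3, and 1 Val/Val mouse, labelled with Cy5, was hybridised together on each of 5 arrays, which the labels call biological replicates. The dyes were not exchanged, so dye and genotype cannot be told apart. The files name their columns Test and Cntrl without saying which genotype each holds, so every ratio is given as Test over Cntrl, and which genotype was higher cannot be read from its sign.

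A miRNA represses messenger RNAs mainly through its seed, the bases 2 to 8 from its 5′ end. In mouse embryonic stem cells the miR-290 to miR-295 hairpins are transcribed together and are among the most abundant miRNAs, and the miR-302 cluster, which also encodes miR-367, takes over as cells pass to the primed, epiblast-like state. Both clusters are shut down on differentiation, and adult brain is not a known site of their expression. Several of their 3p strands share a seed that in mouse stem cells represses inhibitors of the step into S phase. In RefSeq (GRCm38.p6) the first cluster lies on the plus strand of chromosome 7 in the order Mir290a, Mir291a, Mir292, Mir291b, Mir293, Mir294 and Mir295. The long noncoding RNA gene D7Ertd143e and the minus-strand protein-coding gene Nlrp12 overlap its span, and neither contains all of it. The miRNA genes Mir290b and Mir292b are also listed in that span. The second lies on the plus strand of chromosome 3 in the order Mir302b, Mir302c, Mir302a, Mir302d and Mir367. It sits inside the protein-coding gene Larp7, which runs on the minus strand, and inside the plus-strand noncoding RNA gene Gm51018.

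Mature sequences identical to the target that the array gives were found in RefSeq for 14 of the 16 members. The ones below are shown because they carry the seeds that group the members, or because the results turn on them; capitals mark the seed.
miR-302b: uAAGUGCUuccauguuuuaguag
miR-302d: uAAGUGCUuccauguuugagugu
miR-295: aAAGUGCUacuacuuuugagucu
miR-294: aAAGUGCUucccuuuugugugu
miR-291b-3p: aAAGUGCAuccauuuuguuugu
miR-290-3p: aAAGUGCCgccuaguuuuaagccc
miR-302c: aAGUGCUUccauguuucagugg
miR-293: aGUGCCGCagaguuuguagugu
miR-367: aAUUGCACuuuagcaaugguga
miR-290-5p: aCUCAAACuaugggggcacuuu
miR-292-5p: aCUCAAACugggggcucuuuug
miR-291a-5p: cAUCAAAGuggaggcccucucu
miR-291b-5p: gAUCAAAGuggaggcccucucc

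The seed AAGUGCU was shared by 6 members (miR-291a-3p, miR-294, miR-295, miR-302a, miR-302b and miR-302d) and by no other miRNA on the array. The seed AAGUGCC was shared by miR-290-3p and miR-292-3p, with miR-467a as the other carrier on the array. In miR-302c the strand starts further along the same motif, so its seed reads AGUGCUU. The seed of miR-367 was that of miR-25, miR-32, miR-92a, miR-92b and miR-363. The 5p arms had unrelated seeds in 2 pairs, CUCAAAC in miR-290-5p and miR-292-5p and AUCAAAG in miR-291a-5p and miR-291b-5p. The passenger strand miR-293* was the other carrier of CUCAAAC on the array. The targets of miR-291a-5p and miR-291b-5p were an edit distance of 2 apart, and each of the miR-302a to miR-302d targets lay at a distance of 3 from another of them. Those of miR-291a-3p and miR-291b-3p each lay at a distance of 3 from that of miR-294. Signal of these near-identical probes can be shared, so their single values are uncertain.

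Signal of 14 of the 16 members did not exceed the level of mismatch control spots on any array in either column. That level was the 95th percentile of 136 control spots whose names mark mismatched or shifted probes, taken per array and column. A miRNA was called above it when the mean of its 6 spots exceeded it on at least 3 of the 5 arrays. By this rule 2 of 16 members were above it in Test and 2 of 16 in Cntrl, against 51.5% of all 569 miRNA probes in Test and 55.4% in Cntrl (55.9% in either). Both were 5p arms of the chromosome 7 cluster, miR-290-5p and miR-291b-5p. The mismatch level was 167, 209, 107, 89.6 and 77.8 intensity units in Test of replicates 1 to 5, and 379, 414, 399, 409 and 464 units in Cntrl. Empty spots had medians from 31.4 to 45.7 units in Test and from 208 to 361 in Cntrl, so a high floor lies under every Cntrl value of a dim probe. Against the empty spots' own 95th percentile, all 16 members were higher on at least 3 arrays in each column. Nearly every probe was, since 568 of all 569 exceeded it in 1 column or both on at least 3 arrays.

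miR-290-5p, the 5p arm of the first hairpin, was the member most often above the mismatch level, on 4 of 5 arrays in both columns. It read 227, 223, 126, 116 and 66.2 units in Test of replicates 1 to 5 and 458, 581, 555, 432 and 428 units in Cntrl. Replicate 5 was below the level in both columns. Its partner arm miR-290-3p read 131, 144, 90.1, 85.0 and 63.1 units in Test and 371, 403, 378, 401 and 448 units in Cntrl. These values lay between 0.69 and 0.95 of the mismatch level in Test and between 0.95 and 0.98 of it in Cntrl. Of the hairpin's arms the 5p arm was above the level and the 3p arm was not. Each arm has its own probe, and intensities of different probes cannot be compared here. Which arm was more abundant therefore cannot be read from this.

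miR-291b-5p was above the mismatch level on 3 arrays in Test and on 4 in Cntrl. It read 168, 173, 124.005, 111 and 71.2 units in Test and 395, 431, 445, 429 and 449 units in Cntrl. Replicate 5 was again below the level in both columns, and replicate 2 was below it in Test. The count in Test depended on single arrays, since without replicate 1, 3 or 4 only miR-290-5p met the rule there. The partner arm miR-291b-3p, whose seed AAGUGCA differs from the shared one in its last base, read 55.7, 53.7, 49.4, 44.9 and 35.9 units in Test and 270, 291.5, 287, 334 and 387 units in Cntrl. It stayed at 0.26 to 0.50 of the mismatch level in Test and did not exceed the empty spots' 95th percentile on 1 array in Test and on 2 in Cntrl.

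**Figure D1:**
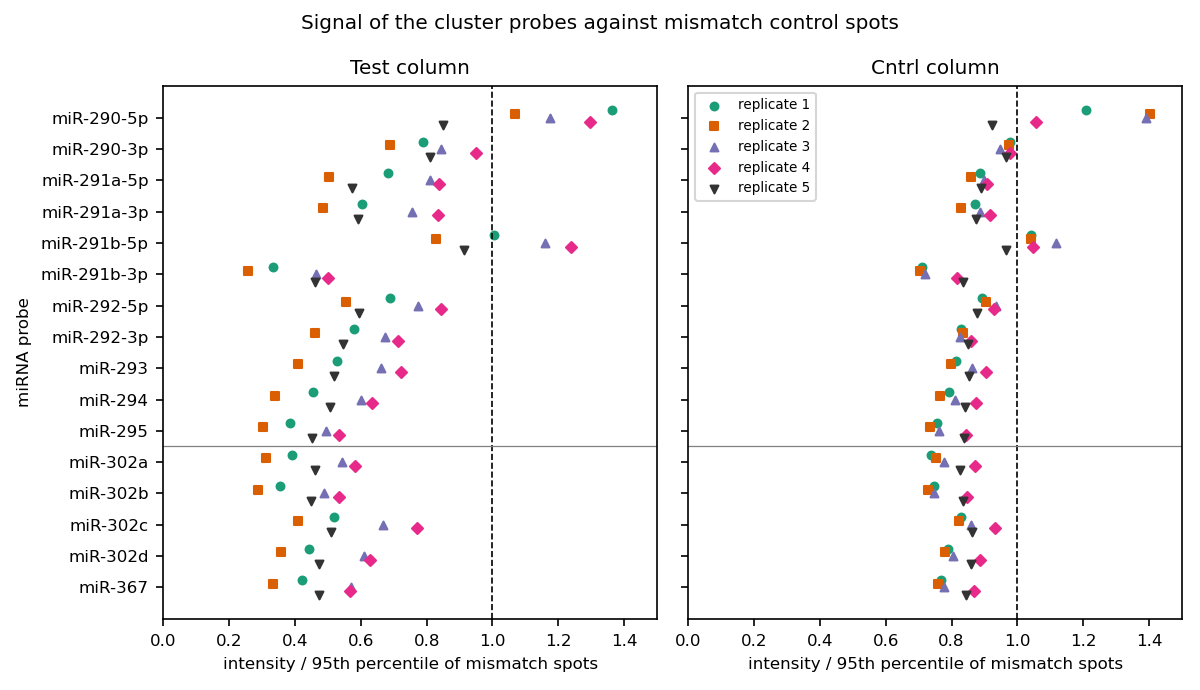
Intensity of each cluster probe divided by the 95th percentile of the mismatch control spots of the same array and column, for the Test column (left) and the Cntrl column (right); each point is 1 array and the dashed line is the mismatch level. Only miR-290-5p and miR-291b-5p cross the line, on 4 and 3 arrays in Test and on 4 arrays each in Cntrl.

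None of the strands with the shared seed AAGUGCU was above the mismatch level. miR-302b, a main product of the chromosome 3 cluster, read 59.0, 59.8, 52.2, 47.7 and 34.8 units in Test and 283, 301, 298, 347 and 387 units in Cntrl. miR-295, the last strand of the chromosome 7 cluster, read 64.3, 63.4, 52.9, 47.8 and 35.3 units in Test and 287, 304, 304, 346 and 388 units in Cntrl. On replicate 5 both were below the empty spots' 95th percentile in both columns, which stood at 35.6 units in Test and 400 in Cntrl. In Cntrl of that array only 6 of the 16 members exceeded it, and none of the miR-302 cluster did. In Test of replicate 1, miR-302b was also below it, at 59.0 against 62.8 units. miR-302a, miR-302d and miR-294 reached at most 0.58, 0.63 and 0.63 of the mismatch level in Test. miR-291a-3p reached at most 0.83 of it. In Cntrl these 6 strands lay between 0.73 and 0.92 of the level.

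The remaining strands were also below the mismatch level on every array. miR-302c, with the shifted seed, read 86.2, 85.2, 71.2, 69.0 and 39.7 units in Test and 314, 341, 343, 381 and 400 units in Cntrl. miR-367 read 70.2, 69.4, 60.8, 50.9 and 36.8 units in Test and 290.8, 315, 311, 355 and 392 units in Cntrl. miR-293, miR-292-3p, miR-292-5p and miR-291a-5p reached at most 0.72, 0.71, 0.84 and 0.84 of the mismatch level in Test, and at most 0.90, 0.86, 0.94 and 0.91 of it in Cntrl. Every one of the 16 members had its lowest Test reading on replicate 5, the array with the lowest control levels in Test.

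Neuronal miRNAs of the tissue were well separated from the control spots. All 6 neuronal miRNAs looked at (miR-124, miR-9, miR-128, miR-132, miR-138 and miR-218) were above the mismatch level on 5 of 5 arrays in both columns. Of a list of 17 miRNAs known from germ cells or placenta, 0 were above it on at least 3 arrays. Of 2 oligodendrocyte miRNAs, miR-338-3p was above it on 5 of 5 arrays in both columns. The other, miR-219, exceeded it on 0 arrays in Test and on 1 in Cntrl. Markers of neighbouring or admixed tissue were mixed: 1 of 2 choroid plexus miRNAs (miR-204), the red cell miRNA miR-451 and 2 of 2 muscle miRNAs were above it. In a whole hippocampus, fewer cells of a type and less RNA per cell cannot be told apart. The arrays' ratios correlated with each other from r = −0.56 (replicates 3 and 5) to r = 0.63 (replicates 1 and 4) over 568 miRNAs. The dyes are stated to be the same on all arrays, so the direction of replicate 3 was kept.

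No member passed the test for a difference between the columns after correction for multiple testing. Ratios were corrected for background, normalized within each array by loess and tested with limma across all 568 miRNAs, with Benjamini-Hochberg adjustment at 0.05. The count at an adjusted p of 0.05 was 0 of 16 members and 0 of 568 miRNAs (0%), and the smallest adjusted p of a member was 0.198. An unadjusted limma p below 0.05 was reached by 1 of 16 members, against 19.4% of all miRNAs tested. That member was lower in Test, as were 10.7% of all miRNAs by this rule, while 0 members and 8.63% of all miRNAs were higher. The member called changed with the processing: with blank subtraction it was miR-292-3p, higher in Test (unadjusted p = 0.0466 in limma), and miR-302b had an unadjusted p of 0.105. With array weights miR-302b was joined by miR-291a-5p, higher in Test at 0.091 (unadjusted p = 0.0497 in limma). Other settings joined members lower in Test to miR-302b, by unadjusted p in limma. These were miR-295 with the median of spots (0.0119) and miR-291b-3p in the authors' deposited normalized values (0.0390). Robust eBayes with a trend added miR-295 (0.0276) and miR-302c (0.0374). Mean log2 ratios of the members ran from −0.10 to 0.077, with 6 positive and 10 negative and a median of −0.034. Over all 568 miRNAs the median was 0.0029 and 48.4% of means were negative. Over the 250 tested miRNAs not above the mismatch level the median was −0.0056 and 53.2% were negative.

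The member with the smallest p was miR-302b, of a family that represses cell cycle inhibitors in stem cells. Its log2 ratio was −0.16, −0.044, −0.10, −0.047 and −0.17 on replicates 1 to 5, negative on 5 of 5 arrays. On replicates 1 and 5, where the ratio was lowest, its Test reading was below the empty spots' 95th percentile. The mean was −0.10 ± 0.060 (SD, n = 5 arrays), with a 95% interval from −0.18 to −0.024. limma gave it an unadjusted p of 0.0192 and an adjusted p of 0.198. It did not pass the correction, and neither column was above the mismatch level on any array. Its size changed with the background step, to −0.15 at a smaller normexp offset of 16 and −0.57 with blank subtraction. In the authors' deposited normalized values, where the whole processing is theirs, it was −0.35. The adjusted p in limma was 0.224, 0.442 and 0.310 in these 3 settings.

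All 5 members of the miR-302 cluster had a negative mean, against 48.4% of all miRNAs and 53.2% of the 250 not above the mismatch level. The means were −0.055 ± 0.042 for miR-302a, −0.049 ± 0.027 for miR-302c, −0.059 ± 0.058 for miR-302d and −0.043 ± 0.039 for miR-367 (SD, n = 5 arrays), beside miR-302b. The sign was the same on all 5 arrays for 3 of 16 members, against 19.7% of all miRNAs and 60 of the 250 not above the mismatch level. The 3 members were miR-302b, miR-302c and miR-295, all negative, against 11.1% of all miRNAs negative on all 5. The other 3 members of the chromosome 3 cluster had 1 array above 0 each, at 0.0035 for miR-302a, 0.0064 for miR-302d and 0.0034 for miR-367. The array medians of the cluster were −0.035, −0.049, −0.048, −0.047 and −0.11 for replicates 1 to 5, so the lowest was on replicate 5. On that array all 5 probes of the cluster read below the empty spots' 95th percentile in Cntrl. The tested miRNAs not above the mismatch level had a median of −0.039 there. Since miR-302a to miR-302d have close sequences, their readings may not be separate. In the deposited normalized values miR-367 stood at 0.0071, and 4 of 5 were negative.

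**Figure D2:**
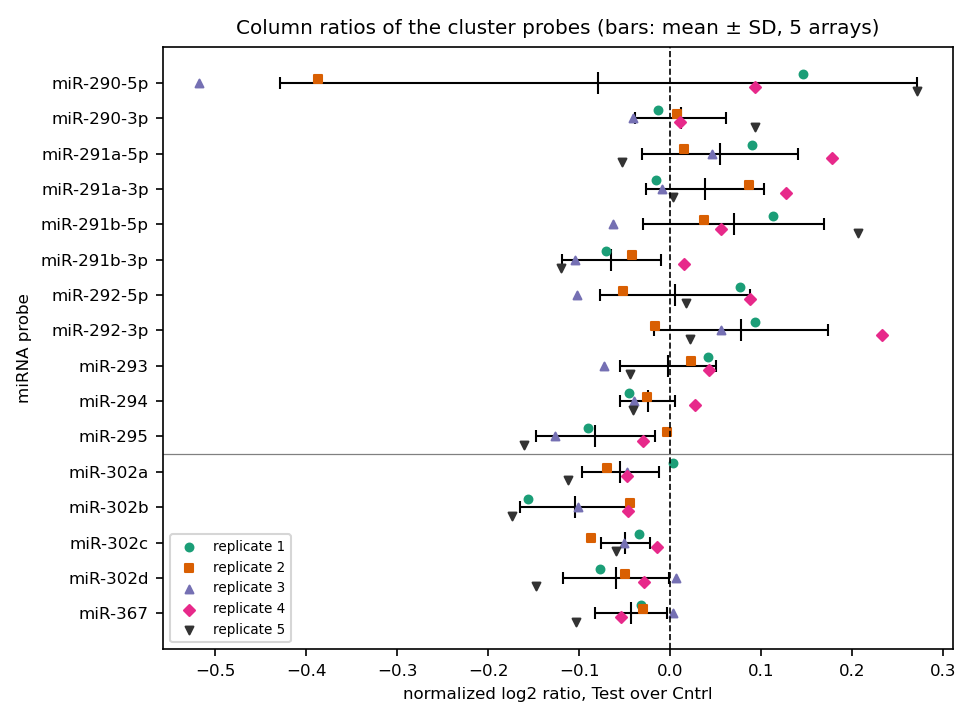
Normalized log2 ratio of Test over Cntrl for each cluster probe; points are the 5 arrays, the vertical tick is their mean and the bar is ± 1 SD, with miR-290 to miR-295 probes above the grey line and probes of the miR-302 cluster below it. miR-290-5p spreads from −0.52 to 0.27 and the 5 means of the miR-302 cluster sit between −0.10 and −0.043.

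The miR-290 to miR-295 cluster had 6 positive and 5 negative means, with a median of 0.0053. Its lowest mean was that of miR-295, at −0.090, −0.0040, −0.13, −0.030 and −0.16 on replicates 1 to 5. This gave −0.082 ± 0.065 (SD, n = 5 arrays) and a 95% interval from −0.17 to 0.0011. Its adjusted p in limma was 0.248. miR-291b-3p was at −0.071, −0.042, −0.10, 0.015 and −0.12, a mean of −0.065 ± 0.054 with replicate 4 above 0 (adjusted p = 0.309 in limma). miR-294, an abundant strand of mouse stem cells, was at −0.025 ± 0.030 and miR-293 at −0.0024 ± 0.053.

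The highest mean of all members was that of miR-292-3p, with the seed AAGUGCC. Its ratios were 0.093, −0.017, 0.056, 0.23 and 0.022 on replicates 1 to 5, which gave 0.077 ± 0.096 (SD, n = 5 arrays). The 95% interval ran from −0.029 to 0.18, and the adjusted p in limma was 0.355. The mean was 0.43 with blank subtraction and 0.48 in the deposited normalized values, without passing the correction in either. The same-seed miR-290-3p was at 0.011 ± 0.050 and miR-291a-3p at 0.038 ± 0.065.

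miR-290-5p, the member most often above the mismatch level, had the widest spread. Its ratios were 0.15, −0.39, −0.52, 0.093 and 0.27 on replicates 1 to 5, positive on 3 arrays and negative on 2. The mean was −0.079 ± 0.35 (SD, n = 5 arrays), with a 95% interval from −0.41 to 0.26. Its adjusted p in limma was 0.765. With replicate 3 left out the mean was 0.031. The spread between arrays was larger than that between the 6 spots of the probe within an array, whose median SD was 0.173.

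The other arm above the mismatch level, miR-291b-5p, was at 0.11, 0.037, −0.063, 0.055 and 0.21 on replicates 1 to 5. Its mean was 0.070 ± 0.099 (SD, n = 5 arrays), and its adjusted p in limma was 0.396. Replicate 3 was the 1 array below 0. Its near-identical relative miR-291a-5p was at 0.055 ± 0.086 and miR-292-5p at 0.0053 ± 0.082.

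For each hairpin with both arms on the array, the ratios of the arms were set side by side. The 3p ratio minus the 5p ratio was −0.13 ± 0.12 for miR-291b, negative on 5 of 5 arrays, and 0.072 ± 0.073 for miR-292, positive on 5 of 5 (SD, n = 5 arrays). For miR-290 it was 0.090 ± 0.32 and for miR-291a −0.017 ± 0.076, each positive on 2 arrays and negative on 3. These differences were not tested.

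The calls depended on the normalization within arrays. With each array centred on its median in place of loess, 10 of 16 members had an adjusted limma p below 0.05, all lower in Test, as did 248 of 568 miRNAs in either direction. All 16 means were then negative, with a median of −0.16 against −0.040 for all miRNAs. With no normalization all 16 passed, as did 442 of 568 miRNAs, with a median of −0.88, while the median of all miRNAs was −0.77. Of the members above the mismatch level, miR-290-5p was at −0.12 and miR-291b-5p at −0.013 with median centring, neither past the threshold.

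**Figure D3:**
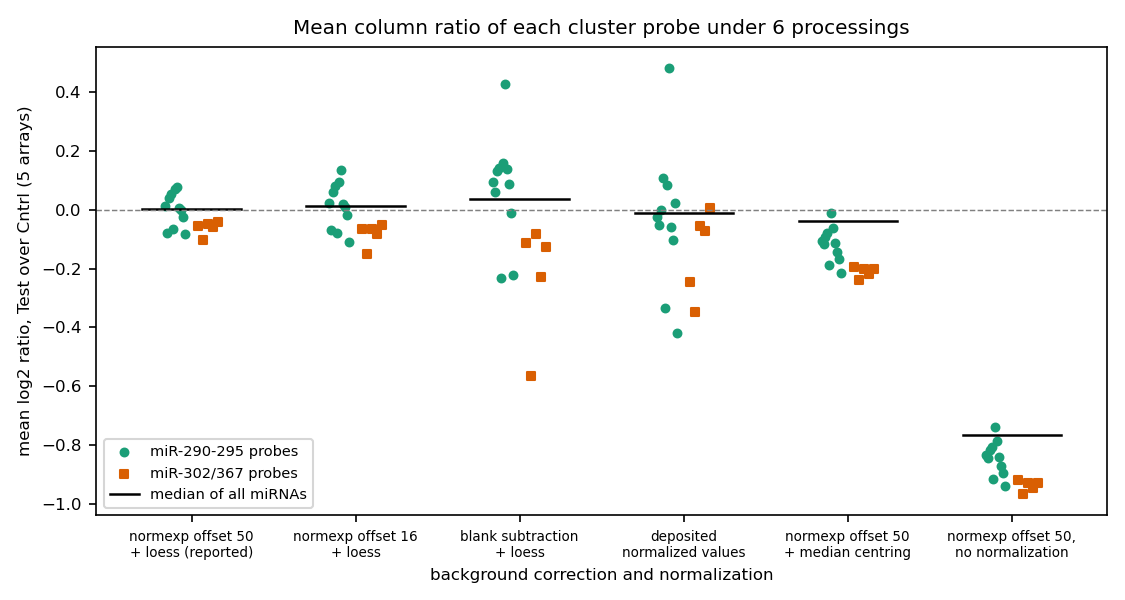
Mean log2 ratio of Test over Cntrl over 5 arrays for each cluster probe under 6 combinations of background correction and normalization; circles are miR-290 to miR-295 probes, squares are probes of the miR-302 cluster and the black line is the median of all miRNAs. With normexp and loess the probes lie near 0, while blank subtraction with loess and the deposited values spread them. With normexp but no loess, all 16 fall below 0 together with the median of all miRNAs.

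Of the relatives by seed and by function, 0 passed the correction in limma. Of 8 members of the miR-17 family, most of which carry the core of the stem cell seed at a shifted place, though miR-18a and miR-18b do not, 6 were above the mismatch level in both columns. Their means split 4 positive and 4 negative, and the smallest limma p belonged to miR-20b at 0.18 ± 0.080 (adjusted p = 0.135) and miR-93 at −0.26 ± 0.20 (adjusted p = 0.198). Of the 5 other carriers of the miR-367 seed, miR-25, miR-92a and miR-92b were above the mismatch level on 5 of 5 arrays, and miR-32 and miR-363 were not on any. miR-32 was at −0.088 ± 0.049 and negative on all arrays. Its adjusted p in limma was 0.217. Of 15 miRNAs that promote exit from pluripotency, among them the let-7 guide strands, miR-145 and miR-134, 14 were above the level in at least 1 column, all but miR-470, which is also among the 17 germ cell and placental miRNAs. They split into 7 positive and 8 negative means, and 0 had an adjusted or an unadjusted limma p below 0.05. For the miR-17 family the unadjusted count was 2 of 8 and for the miR-367 relatives 1 of 5, beside 19.4% of all miRNAs.

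The miRNAs whose ratios lay closest to those of miR-302b over the 5 arrays were miR-466b-5p, miR-568 and miR-297c. Their root mean square differences from it were 0.017, 0.022 and 0.027 on the log2 scale. They were picked as the lowest, so they lie below the median of 0.19 over all miRNAs by construction. None of these 3 was above the mismatch level on any array. The median SD between arrays was 0.063 over the 250 tested miRNAs not above that level and 0.195 over the 318 above it.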

How the data were processed

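The deposited scanner tables, per the file headers, hold linear intensity (mean foreground of each spot, not normalized) for a Cntrl and a Test column, with 3968 spots per array; background columns are 0 in every row. The deposited series matrix holds values that were set against the scanner columns: they are log2 ratios of Test over Cntrl (slopes 0.94 to 0.99 on 318 bright miRNAs against blank-subtracted loess ratios, r at least 0.98), with column medians of −0.036, −0.019, −0.028, −0.026 and −0.048. The genotype direction stays unknown. They served as an alternative.

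Intensities were corrected with normexp (offset 50) on all spots and normalized within arrays by loess fitted without the control spots. The 6 log2 spot ratios of a probe were averaged. Tested miRNAs had a mean over the 95th percentile of 266 empty spots, in 1 column or both, on 3 or more arrays. limma 3.58.1 (R 4.3.3) fitted an intercept, two-sided, with eBayes and Benjamini-Hochberg over 568 miRNAs. Since the columns' genotypes are unknown, ratios run as Test over Cntrl. The array is the pair, so the ratio carries the replicate block. Mismatch controls are 136 spots; 20 bright spots also named as mismatch were left out of that level. The number of arrays limits precision, and p-values cover the spread between the pairs of mice. The fit was tested on simulated data.

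Named in full were members above the mismatch level, those with the highest and lowest mean, the 3 with the smallest p, and both arms of a hairpin. Likeness was the root mean square difference from the member with the smallest p. Members and lists were chosen with earlier results of these data known. Sequences are from RefSeq (GRCm38.p6); coordinates are left out because the arrays name no build. Alternatives covered background correction, normalization, filters, spot summary, variance model, array weights, the pairing, the deposited values and each array left out; replicate 3 with its sign turned was added after seeing the data. Figures were drawn with matplotlib 3.10.9.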

Additional observations from a re-analysis of the deposited data

Results flagged for a closer look

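Of 51 sets of 5 array values checked with Dixon's ratio (each member's log2 ratio, Test intensity and Cntrl intensity, and the array medians of the clusters), 2 had an array standing apart, where chance alone passes about 1 in 20. The log2 ratio of miR-294 was 0.027 on replicate 4, against values between −0.046 and −0.025 on the other arrays. The median of the miR-302 cluster was −0.11 on replicate 5, against −0.049 to −0.035 elsewhere. On replicate 5 its probes were all below the empty spots' 95th percentile in Cntrl. The tested miRNAs not above the mismatch level had a median of −0.039 on that array. None of the 6 passenger-strand probes of these hairpins, which the members leave out, was above the mismatch level on any array.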

How the results depend on the processing

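Of the 16 members' ratios under all alternatives, 244 values kept their direction and side of the threshold, 33 turned direction and 19 passed the threshold with the direction kept. The count of miRNAs past the adjusted threshold, 0 in the reported fit, was 248 with median centring, 442 with no normalization, 4 with robust eBayes and a trend, 21 with array weights, 2 with normexp offset 16 and 2 in the series matrix values. It ranged from 0 to 5 over the fits leaving out 1 replicate (5 without replicate 3). The count of members past it was 10 with median centring and 16 with no normalization, and 0 in all other settings. Members with an unadjusted p under 0.05, 1 in the reported fit, numbered 11 with median centring (beside 51.9% of all miRNAs), 16 with no normalization (78.5%), 3 with robust eBayes and a trend (19.7%), and 2 each with the median of spots (19.7%), array weights (29.9%, with 1 of the 2 higher in Test) and the series matrix values (15.0%). With blank subtraction (11.8%) and with replicate 3 turned (19.2%) the count was again 1, but the member was another and higher in Test. It was miR-292-3p in the first and miR-291b-5p in the second. Members under that p numbered 0 with no background correction (17.4%), with loess fitted on bright probes alone (11.4%) and without the replicate block. The stricter filters also gave 0, but left only 6 members (17.5%) and 2 members (17.3%) to test. With 1 replicate left out the count was 0 without replicate 1 (10.2%) or 5 (20.4%). It was 1 without replicate 3 (24%) and 2 without replicate 2 (10.8%) or 4 (11.6%). Without the replicate block, 2 of 568 miRNAs had an unadjusted p under 0.05.

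The members' median, −0.034, was −0.16 with median centring, −0.88 with no normalization, 0.025 with blank subtraction, 0.025 over the 6 members above the empty spots in both columns on all arrays, −0.0047 over the 2 above the mismatch controls, 0.0089 with replicate 3 turned and −0.039 to −0.0030 with 1 replicate left out (−0.0030 without replicate 3). The number of members above control spots, 2 in either column, in Test and in Cntrl, was 6 in each against the median of the mismatch controls and 16 in each against the empty spots. Of all 569 miRNA probes, 568 exceeded the empty spots in 1 column or both. The share of all probes above the median of the mismatch controls was not computed, so the count of 6 members cannot be called high or low. By the rule of the reported counts, the number of members above the mismatch level in Test was 1 to 2 with 1 replicate left out.

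Ratios that turned direction with median centring were miR-290-3p (−0.11), miR-291a-3p (−0.092), miR-291a-5p (−0.079), miR-291b-5p (−0.013), miR-292-3p (−0.061) and miR-292-5p (−0.11). With no normalization these were at −0.83 for miR-290-3p, −0.82 for miR-291a-3p, −0.81 for miR-291a-5p, −0.74 for miR-291b-5p, −0.79 for miR-292-3p and −0.84 for miR-292-5p. miR-293 was at 0.0083 with offset 16, 0.089 with blank subtraction, 0.023 with array weights and 0.027 with replicate 3 turned. With 1 replicate left out it ranged from −0.014 to 0.015 (0.015 without replicate 3, 0.0082 without replicate 5). miR-290-5p was at 0.062 with blank subtraction and 0.13 with replicate 3 turned, and ranged from −0.17 to 0.031 with 1 left out (0.031 without replicate 3). miR-290-3p was at −0.0085 with loess on bright probes, −0.0045 with the median of spots and −0.025 in the series matrix, and ranged from −0.0091 (without replicate 5) to 0.024. miR-292-5p was at −0.026 with loess on bright probes, −0.011 with the median of spots and −0.058 in the series matrix. It ranged from −0.015 to 0.032 with 1 left out (−0.012 without replicate 1, −0.015 without replicate 4). In the series matrix miR-291a-3p was at −0.00060, miR-294 at 0.023 and miR-367 at 0.0071. The causes were not tested. The ratios of the 14 members not above the mismatch controls rest on dim signal, whose part in the changes of direction was not tested. With 4 arrays the same minimum of 3 was kept, so 545 miRNAs were tested without replicate 2, 3 or 4.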
